A study of Mus musculus with 12 samples.

Results

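The sarcoplasmic reticulum calcium handling genes, which move calcium in and out of the heart muscle cell's internal store, were described in hearts with and without the mitochondrial enzyme gene Mrpp3, now called Prorp. They are the calcium pump Atp2a2 with its restrainers Pln and Sln, the store proteins Hrc and Casq2, the release channel Ryr2 with its anchor Trdn, the junction proteins Jph1 and Jph2, and the surface exchanger Slc8a1. Members were found by their symbols in the files' gene names, and all 10 were present as loci of their own among 44450 loci per library. Of the 10, 9 reached at least 1 FPKM (fragments scaled to transcript length and library size) in at least 3 of 6 libraries and were tested, and Sln did not.

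Heart muscle contracts when calcium leaves the sarcoplasmic reticulum, an internal membrane store, through the ryanodine receptor, and relaxes when the pump SERCA2 returns it. Phospholamban and sarcolipin are small membrane proteins that restrain the pump, calsequestrin and the histidine-rich calcium binding protein hold calcium inside the store, and triadin ties these to the release channel. Junctophilins hold the store close to the cell's surface membrane, where the sodium-calcium exchanger carries calcium out of the cell.

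The libraries are total RNA of whole hearts of 11-week-old C57BL/6N mice after removal of ribosomal RNA. The 3 controls were Mrpp3 loxP/loxP, and the 3 knockouts were Mrpp3 loxP/loxP, +/Ckmm, which adds a Cre transgene under the muscle creatine kinase promoter, active in heart and skeletal muscle cells. Both groups carry the loxP-flanked gene and only the knockouts carry Cre, so an effect of Cre and the loss of Mrpp3 cannot be told apart, and cells of the heart other than muscle keep the gene. The labels number the libraries of a group as replicates without saying that each is a separate animal, so the p-values reflect only the spread among these 6 libraries, which may be technical. The series has 12 samples, and its other libraries were not analysed here.

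The files hold no read totals. Relative depth was read from the most frequent ratio between control replicate 1 and each library, over pseudogene and small RNA loci under 1 FPKM. With control replicate 1 set to 1, it was 1.32 and 1.35 in the other controls and 2.06 to 2.57 in the knockouts. Of the 364 to 417 loci compared per library, 71 to 94 lay at that ratio. Between 11753 and 12272 loci reached 1 FPKM per library. The targeted gene Prorp was 3.12 ± 0.437 FPKM in controls and 0.566 ± 0.130 in knockouts (SD, n = 3 each). Knockout replicate 2 differed in its tissue markers: 8 atrial muscle markers summed to 3796 FPKM there, against 41.9 to 55.3 in controls, 132 in knockout replicate 1 and 19.2 in knockout replicate 3. In that library 5 ventricular muscle markers summed to 912 FPKM, against 13863 to 17809 in controls and 6608 and 6071 in the other knockouts, and 6 blood markers summed to 21899 FPKM, against 622 to 2903 in the other 5 libraries.

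In the knockouts 7 of the 9 tested members fell and 0 rose, by limma with Benjamini-Hochberg adjustment over all 12181 tested loci and a threshold of 0.05. At an unadjusted p under 0.05, 8 were lower and 0 higher, and the share of all loci at that looser threshold was not counted. Over all tested loci, 19.5% fell and 16.1% rose by the same rule, and the median log2 fold change was -0.02, against -1.26 over the 9 members. With each library scaled to the same summed FPKM, 5 members fell, while 1400 of all loci fell and 3229 rose, against 2377 and 1966 without that scaling, and the median of all loci moved to 0.20. The falls were deepest for Hrc, Pln, Ryr2 and Atp2a2, smaller for Trdn, Casq2 and Jph2, and neither Jph1 nor Slc8a1 passed the test. All 3 knockouts lay below all 3 controls for the same 7 members, as they did for 28.7% of tested loci. In whole-heart RNA, fewer muscle cells and less of a transcript per cell cannot be told apart.

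**Figure D1:**
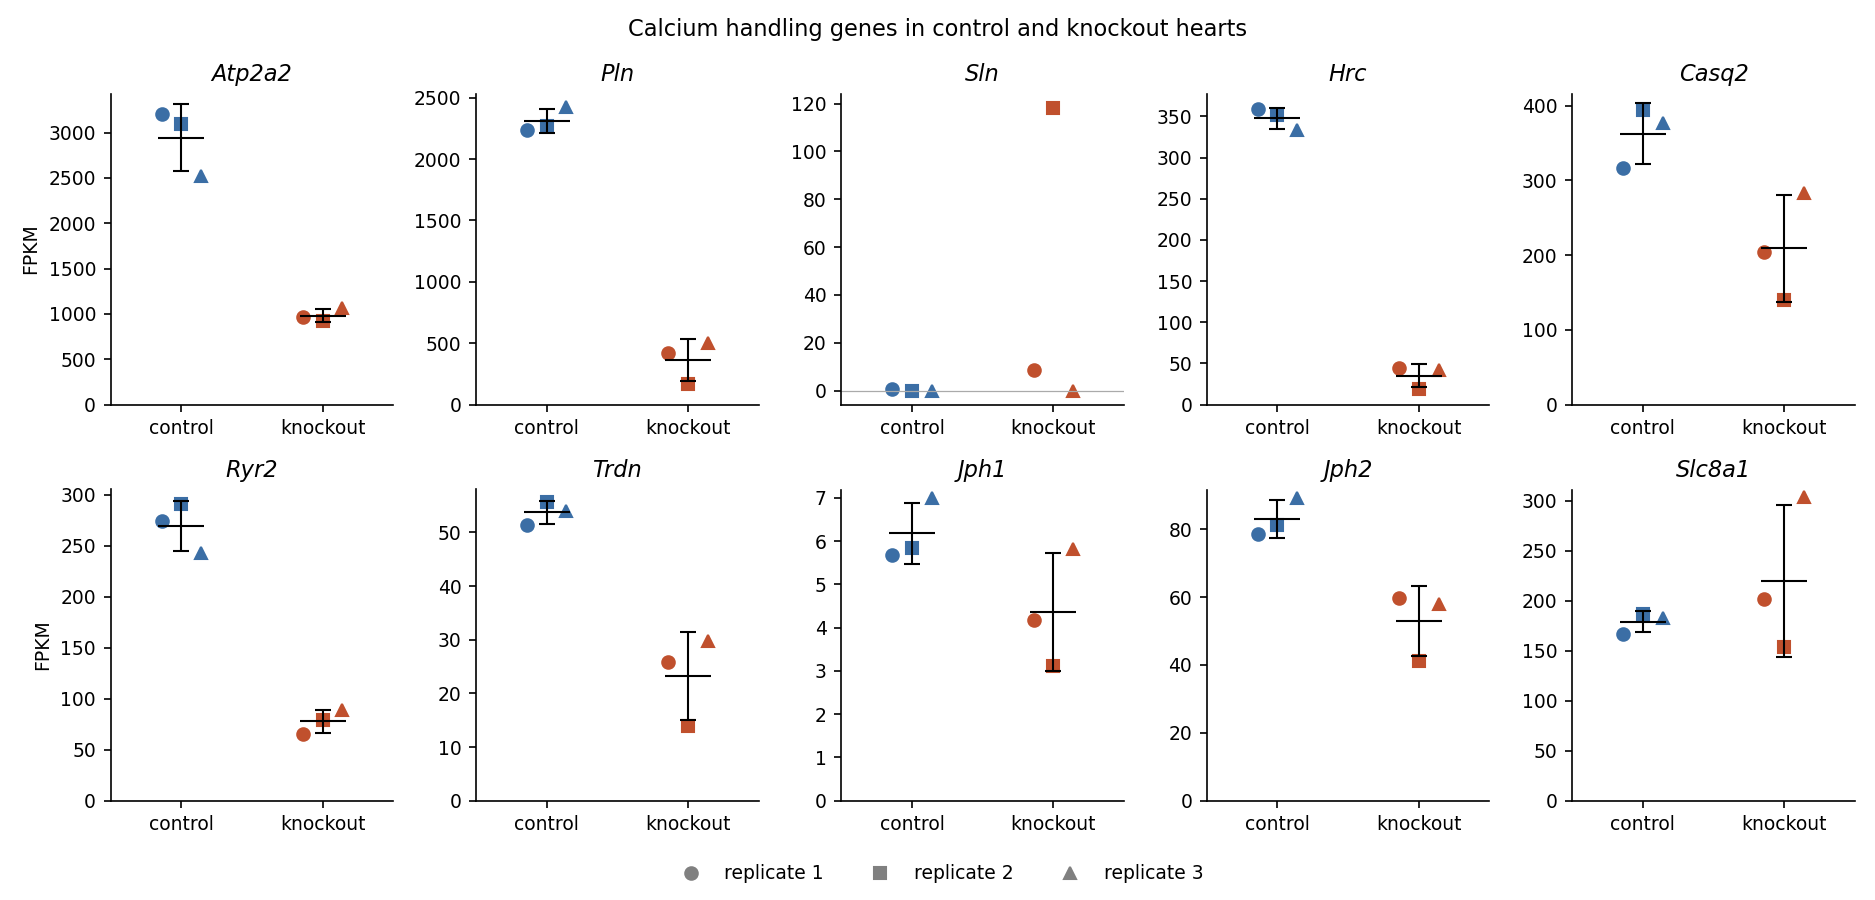
FPKM (vertical axis, each panel starting at or just below 0) of the 10 genes in each control (blue) and knockout (red) library; symbols give the replicate number, and the wide bar with whiskers is the mean ± SD of 3 libraries, left out for Sln, which is listed at 0 in 3 libraries. Atp2a2, Pln, Hrc, Casq2, Ryr2, Trdn and Jph2 have every knockout below every control, Jph1 and Slc8a1 overlap, and Sln is high in knockout replicate 2.

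Atp2a2 (chr5:122453513-122502225, GRCm38.p6) encodes SERCA2, the pump that refills the store and so relaxes the muscle. It was 3207, 3098 and 2520 FPKM in control replicates 1 to 3 and 961, 925 and 1063 FPKM in knockout replicates 1 to 3. Every knockout lay well below every control, and the knockouts were close to one another. The mean went from 2942 ± 369 to 983 ± 71.3 FPKM (SD, n = 3 each), 33.4% of control, a log2 fold change of -1.58 (limma SE 0.22, adjusted p = 0.0023, unadjusted 95% interval -2.10 to -1.05). In controls it was the 24th most abundant tested locus by FPKM, and 2.40% of tested loci had as low a log2 fold change.

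Pln (chr10:53337686-53345999) encodes phospholamban, which slows the pump until it is phosphorylated. It was 2237, 2268 and 2421 FPKM in the controls and 417, 170 and 498 FPKM in knockout replicates 1 to 3. The controls were close to one another, and knockout replicate 2 was the lowest of the knockouts, at 37.1% of the mean of the other 2. The mean fell from 2309 ± 98.6 to 362 ± 171 FPKM, a log2 fold change of -2.81 (limma SE 0.39, adjusted p = 0.0022), and without knockout replicate 2 it was -2.34 (adjusted p = 0.00024). Only 0.263% of tested loci had as low a value.

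Relative to the pump it restrains, Pln was lower in every knockout. Its FPKM was 69.7%, 73.2% and 96.1% of that of Atp2a2 in the controls and 43.3%, 18.4% and 46.9% in the knockouts. The groups did not overlap, with a log2 difference in this ratio of -1.24 (exact two-sided permutation p = 0.10, the smallest that 3 against 3 libraries can give). Without knockout replicate 2 the difference was -0.81.

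Sln (chr9:53850251-53853849) encodes sarcolipin, a pump restrainer that in mouse heart is typical of the atria. Controls were listed at 0.767, 0 and 0 FPKM, and knockout replicates 1 to 3 at 8.52, 118 and 0 FPKM. Knockout replicates 1 and 2 lay above the controls and replicate 3 was listed at 0, so the groups overlapped. A listed 0 can be a failed estimate, and 3 of the 6 libraries were at 0, so the fitted values for Sln that follow rest on those zeros. In a fit without a filter on low values, over 22503 loci, the log2 difference was 3.57 (SE 1.85, 95% interval -0.88 to 8.03, limma adjusted p = 0.24).

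Set against the pump, Sln was 0.0239%, 0% and 0% of Atp2a2 FPKM in the controls and 0.887%, 12.8% and 0% in the knockouts. The difference of 4.55 percentage points (exact two-sided permutation p = 0.40) became 0.435 without knockout replicate 2. In knockout replicate 2 Sln (118 FPKM) came near Pln (170 FPKM), and in the other 5 libraries it was far below it.

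All 8 atrial muscle markers were highest in knockout replicate 2, as Sln was, but they did not follow Sln over the other libraries alike. Myl7 was 1.90, 0 and 0.313 FPKM in the controls and 43.5, 911 and 0.0961 in the knockouts, and Myl4 was 4.09, 1.94 and 1.33, then 66.1, 2290 and 3.35. These light chain genes were second highest in knockout replicate 1, as Sln was. Of the 8 atrial markers, 7 were tested and 1 rose, Dkk3, at 0.617, 0.360 and 0.396 FPKM in the controls and 5.77, 100.1 and 3.01 in the knockouts. Dkk3 was under 1 FPKM in every control and passed the filter only through the knockouts, so its call is not independent of the filter. Bmp10, an atrial growth factor named after its values were seen, was 0, 0 and 0.0577 FPKM in the controls and 0.785, 386 and 4.19 in the knockouts. Kcnj3, an atrial potassium channel gene, was 30.0, 28.4 and 24.3 FPKM in the controls and 5.51, 31.1 and 1.58 in the knockouts, and Stard10 was 13.5, 12.8 and 11.4, then 5.36, 69.6 and 2.60. Both were lower in knockout replicates 1 and 3 than in every control. Gja5 was 2.04 to 2.83 FPKM in the controls and 2.59 to 2.98 in the knockouts, and Nr2f2 was 1.91 to 2.49 and 1.82 to 4.11 FPKM. The part of atrial tissue in the Sln values was not tested.

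**Figure D2:**
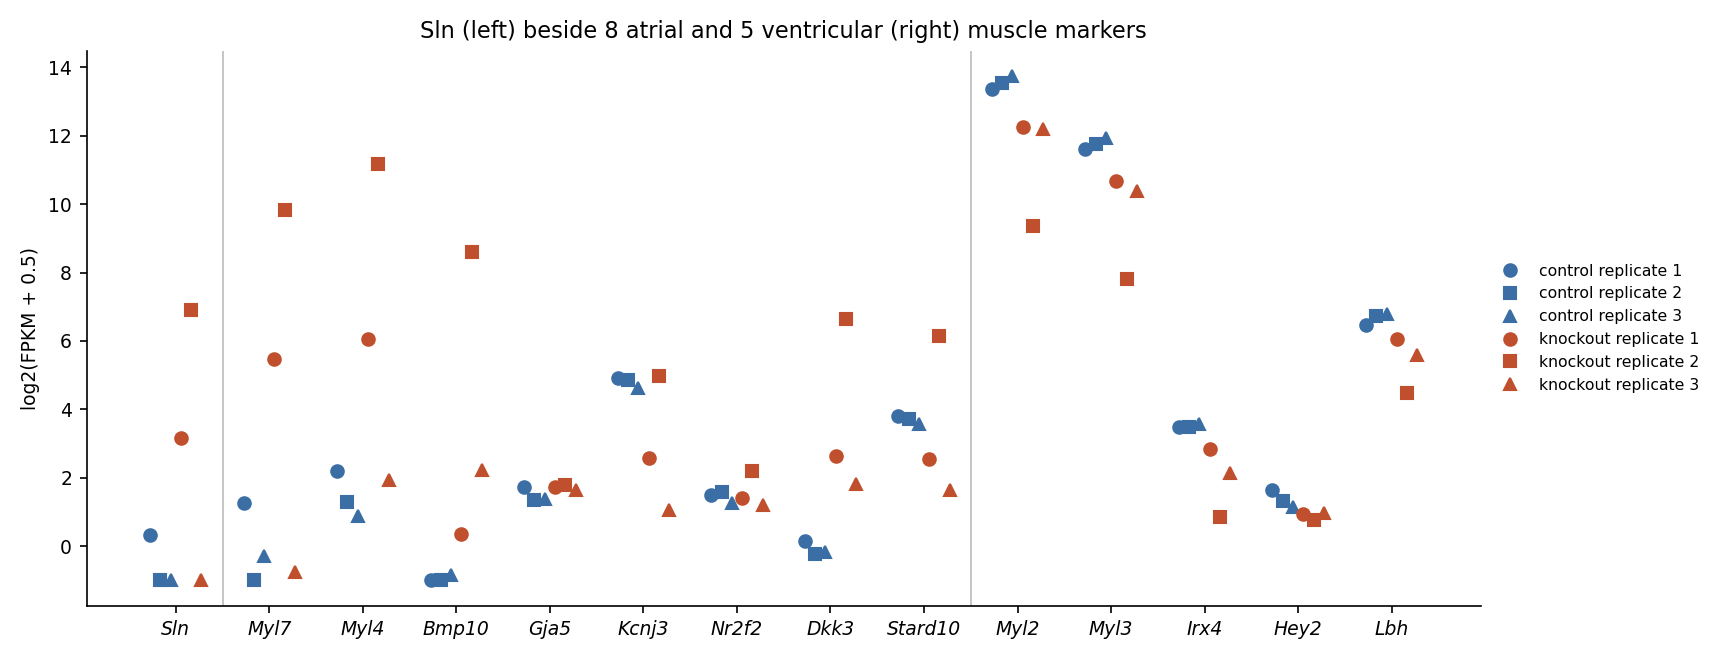
Level of Sln, 8 atrial and 5 ventricular muscle markers as log2(FPKM + 0.5) (vertical axis) in each library, with blue for control, red for knockout and symbols for the replicate number. Sln, Myl7, Myl4, Bmp10 and Dkk3 are highest in knockout replicate 2, where Myl2 and Myl3 are lowest.

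Hrc (chr7:45335269-45338973) encodes a calcium-binding protein inside the store that also binds the pump and triadin. It was 358, 351 and 333 FPKM in the controls and 44.7, 19.2 and 42.1 FPKM in knockout replicates 1 to 3. The lowest control was far above the highest knockout. Its mean fell from 348 ± 13.2 to 35.3 ± 14.1 FPKM, a log2 fold change of -3.37 (limma SE 0.31, adjusted p = 0.00050), the deepest fall of the 9 members. As low a value was reached by 0.156% of tested loci, and without knockout replicate 2 it was -2.99 (adjusted p = 6.1e-05).

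Casq2 (chr3:102086415-102146514) encodes cardiac calsequestrin, the main calcium buffer of the store. It was 316, 394 and 376 FPKM in the controls and 204, 140 and 283 FPKM in the knockouts. The groups were apart, with knockout replicate 3 nearest to the lowest control. The mean went from 362 ± 40.8 to 209 ± 71.6 FPKM, a log2 fold change of -0.84 (limma SE 0.26, adjusted p = 0.041). The call was lost without any 1 of the controls (adjusted p = 0.072, 0.13 and 0.12) without knockout replicate 1 (0.095), with no filter on low values (0.085) and with libraries scaled to one sum (0.057), and 9.68% of tested loci had as low a value.

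Ryr2 (chr13:11553099-12106945) encodes the ryanodine receptor, the channel through which the store releases calcium. It was 274, 291 and 243 FPKM in the controls and 65.5, 79.0 and 88.5 FPKM in the knockouts. Here knockout replicate 2 was the middle one, at 103% of the mean of the other 2. The mean fell from 269 ± 24.4 to 77.6 ± 11.6 FPKM, a log2 fold change of -1.79 (limma SE 0.16, adjusted p = 0.00050), with the smallest standard error of the members.

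Trdn (chr10:33083483-33476709) encodes triadin, which links calsequestrin to the release channel. It was 51.5, 55.7 and 54.1 FPKM in the controls and 25.9, 13.9 and 29.8 FPKM in the knockouts. Every knockout was below every control, and knockout replicate 2 was lowest. The mean fell from 53.8 ± 2.15 to 23.2 ± 8.26 FPKM, a log2 fold change of -1.26 (limma SE 0.26, adjusted p = 0.0097), and it was -0.94 without knockout replicate 2 (adjusted p = 0.0016).

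Relative to the channel it serves, the buffer was higher in every knockout. Casq2 FPKM was 115%, 135% and 155% of that of Ryr2 in the controls and 311%, 177% and 320% in the knockouts. The groups did not overlap, with a log2 difference in the ratio of 0.95 (exact two-sided permutation p = 0.10, the smallest possible), between 0.81 and 1.232 with 1 library left out.

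Jph2 (chr2:163336242-163398049) encodes the main junctophilin of the heart, which bridges the surface membrane and the store. It was 78.6, 81.1 and 89.3 FPKM in the controls and 59.6, 41.1 and 57.9 FPKM in the knockouts. All knockouts were lower, by a log2 fold change of -0.66 between means of 83.0 ± 5.58 and 52.9 ± 10.2 FPKM (SE 0.17, limma adjusted p = 0.021). The call was lost without any 1 of the controls (adjusted p = 0.057, 0.069 and 0.081) and with libraries scaled to one sum (0.051).

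Jph1 (chr1:16942104-17097922), the junctophilin typical of skeletal muscle, was 5.69, 5.85 and 6.99 FPKM in the controls and 4.17, 3.11 and 5.82 FPKM in the knockouts. Knockout replicate 3 lay inside the control range. The log2 difference was -0.49 (SE 0.21, limma adjusted p = 0.11, 95% interval -0.98 to -0.00018), and without knockout replicate 3 it was -0.70 and passed (adjusted p = 0.022). The sum of 7 skeletal muscle markers was at most 4.01 FPKM in any library.

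Slc8a1 (chr17:81373105-81738387), the sodium-calcium exchanger of the surface membrane, was 167, 186 and 183 FPKM in the controls and 201, 154 and 303 FPKM in the knockouts. One knockout lay below the controls and the other 2 above, so the groups overlapped. The log2 difference was 0.24 (SE 0.25, limma adjusted p = 0.48, 95% interval -0.34 to 0.81), and 68.5% of tested loci had as low a value. It was 0.47 without knockout replicate 2 (adjusted p = 0.088) and -0.021 without knockout replicate 3 (adjusted p = 0.93).

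The exchanger and the pump remove calcium from the cell fluid by separate routes, and the ratio of their transcripts was higher in every knockout. Slc8a1 FPKM was 5.21%, 6.02% and 7.27% of that of Atp2a2 in the controls and 20.9%, 16.6% and 28.5% in the knockouts. The groups lay far apart, with a log2 difference of 1.82 (exact two-sided permutation p = 0.10, the smallest possible). It stayed between 1.61 and 2.00 with any 1 library left out.

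**Figure D3:**
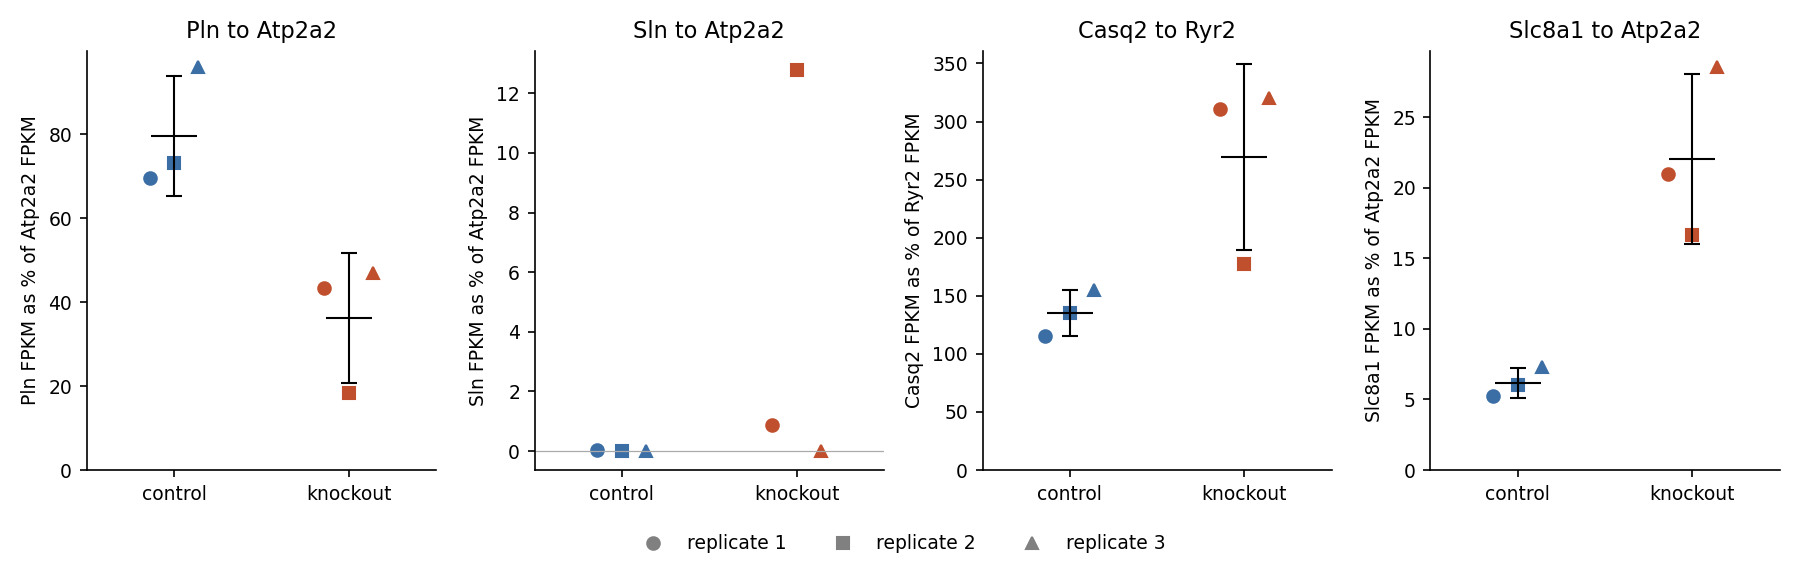
Ratios of FPKM within each library, in percent (vertical axes), for control (blue) and knockout (red) libraries; symbols give the replicate number, and bars give mean ± SD of 3 libraries except for Sln. Pln relative to Atp2a2 is lower in every knockout, and Casq2 relative to Ryr2 and Slc8a1 relative to Atp2a2 are higher in every knockout.

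Among the knockouts, 8 of the 9 tested members were lowest in replicate 2, the exception being Ryr2, as were 43.7% of all tested loci. Replicate 3 was the highest knockout for 7 of the 9, all but Hrc and Jph2, and for 43.2% of all tested loci. Relative to the mean of the other 2 knockouts, replicate 2 was at 44.1% for Hrc, 50.1% for Trdn, 57.6% for Casq2, 61.0% for Slc8a1, 62.4% for Jph1, 69.9% for Jph2 and 91.4% for Atp2a2. As with all libraries, 7 of the 9 tested members fell without that library, while 2389 of all 12181 tested loci fell and 2153 rose. The log2 fold changes of those 7 members were then -1.53 for Atp2a2 (limma adjusted p = 0.0013), -1.81 for Ryr2 (0.00065), -0.59 for Casq2 (0.042), -0.49 for Jph2 (0.012) and the values given above for Pln, Hrc and Trdn. The falls of Atp2a2, Pln, Hrc, Ryr2 and Trdn passed under each of the 16 alternatives run.

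**Figure D4:**
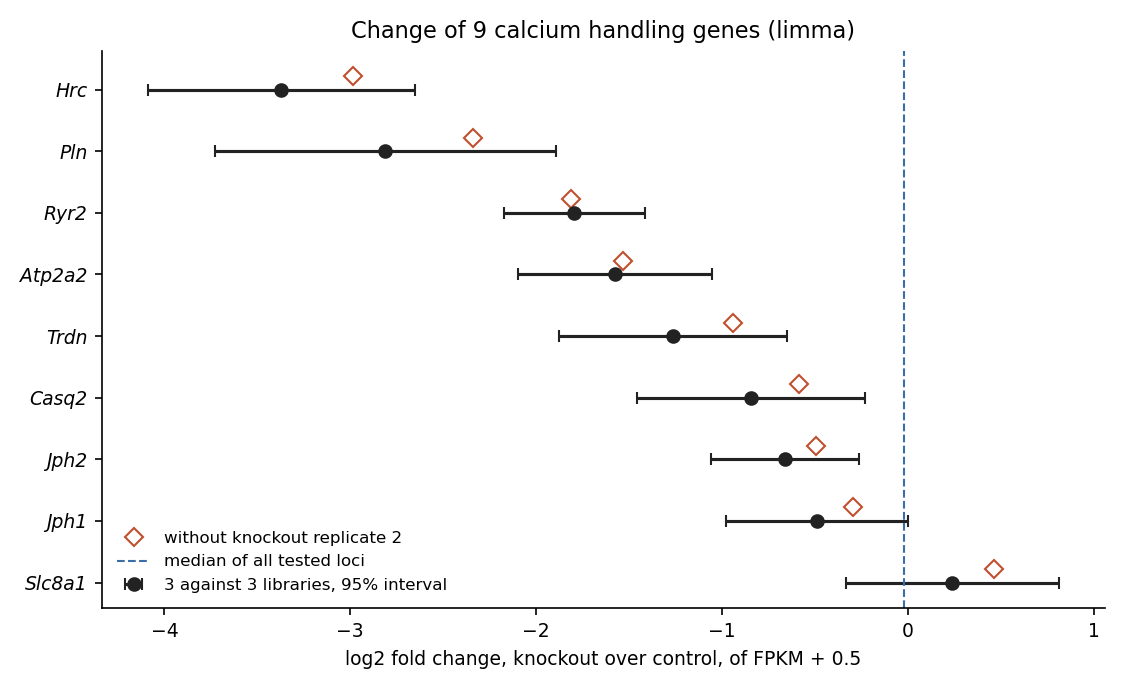
Log2 fold change of FPKM + 0.5, knockout over control (horizontal axis), of the 9 tested genes, with filled points and 95% intervals from limma for 3 against 3 libraries, open diamonds for the fit without knockout replicate 2, and the median of all tested loci as a dashed line. Leaving out knockout replicate 2 moves Pln and Hrc toward 0 and leaves Ryr2 and Atp2a2 nearly where they were.

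Some muscle markers fell beside the members, and most macrophage and fibroblast markers rose. The 8 general heart muscle markers summed to 21700 to 23978 FPKM in the controls and to 11925, 8354 and 14563 FPKM in the knockouts, with 4 of 8 lower (Myh6, Tnnt2, Tnni3 and Actc1) and a median log2 fold change of -0.69. Of the 5 ventricular markers 3 fell (Myl3, Irx4 and Lbh), and all 5 had every knockout below every control. Of 7 fibroblast markers, 4 rose (Col1a1, Col1a2, Col3a1 and Postn) and 0 passed as lower, though 1 that did not pass had every knockout below every control. The 7 fibroblast markers summed to 333 to 407 FPKM in controls and 378 to 669 in knockouts. Of 7 macrophage markers 5 rose, with sums of 74.1 to 76.9 and 117 to 133 FPKM. The blood (5 tested), endothelial (6 tested) and smooth muscle (4 tested) lists had 0 calls, the last 2 with sums of 249 to 328 and 73.0 to 108 FPKM over all libraries. At an unadjusted p under 0.05 by limma, 2 endothelial markers were lower and 0 of the blood and smooth muscle markers passed. The part of the cell makeup in the members' falls was not tested.

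Scaled to the 8 heart muscle markers of the same library, a description chosen after the values were seen, the members split 3 ways. The shares of all tested loci that split this way on the same scale were not counted, so the split is not a result about the members. Every knockout was below every control for Pln (10.0% ± 0.324 of the marker sum in controls, 2.98% ± 0.823 in knockouts), Hrc (1.51% ± 0.132 and 0.298% ± 0.0732), Ryr2 (1.17% ± 0.139 and 0.701% ± 0.214) and Trdn (0.233% ± 0.00682 and 0.196% ± 0.0262). Every knockout was above every control for Jph1, Jph2 and Slc8a1, the last at 0.776% ± 0.0164 and 1.87% ± 0.198. The marker sum itself was lower in every knockout and Jph2 FPKM fell, so a higher share here is not by itself a rise in FPKM. The groups overlapped for Atp2a2 (12.8% ± 2.16 and 8.81% ± 2.00), Casq2 and Sln. For Atp2a2 the overlap came from knockout replicate 2 alone, at 11.1%, against 8.06% and 7.30% in the other knockouts and 10.5% in the lowest control. For Casq2 it also came from that library alone, at 1.677% against 1.679% in the highest control, with the other knockouts above every control. Values with ± are mean ± SD of 3 libraries.

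Promoter sequence was at hand for 6 of the 10 members, from RefSeq on GRCm38.p6. The 250 bases before the start are shown for Slc8a1, which did not pass, and for the 4 members that fell and have 1 listed start. Jph2, which also fell, has 2 listed starts and is described without its sequence. Each runs 5′ to 3′ on the gene's strand, and capitals mark matches, on either strand, to motifs of factors known in heart genes.
Pln (chr10:53337436-53337685, plus strand): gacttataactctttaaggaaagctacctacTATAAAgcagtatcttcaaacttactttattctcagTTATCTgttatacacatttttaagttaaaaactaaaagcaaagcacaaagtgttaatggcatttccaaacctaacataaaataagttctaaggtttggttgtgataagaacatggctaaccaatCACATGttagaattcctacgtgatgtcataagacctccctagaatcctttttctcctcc
Hrc (chr7:45335019-45335268, plus strand): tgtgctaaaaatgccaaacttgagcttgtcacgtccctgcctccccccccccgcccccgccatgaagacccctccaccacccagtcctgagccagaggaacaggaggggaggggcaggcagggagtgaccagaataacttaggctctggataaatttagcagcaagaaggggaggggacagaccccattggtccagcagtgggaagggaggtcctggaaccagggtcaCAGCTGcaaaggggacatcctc
Ryr2 (chr13:12106946-12107195, minus strand): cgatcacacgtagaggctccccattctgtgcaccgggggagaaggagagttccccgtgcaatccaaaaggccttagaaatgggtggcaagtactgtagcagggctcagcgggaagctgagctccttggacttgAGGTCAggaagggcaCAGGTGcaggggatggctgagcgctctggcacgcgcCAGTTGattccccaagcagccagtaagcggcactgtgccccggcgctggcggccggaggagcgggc
Casq2 (chr3:102086165-102086414, plus strand): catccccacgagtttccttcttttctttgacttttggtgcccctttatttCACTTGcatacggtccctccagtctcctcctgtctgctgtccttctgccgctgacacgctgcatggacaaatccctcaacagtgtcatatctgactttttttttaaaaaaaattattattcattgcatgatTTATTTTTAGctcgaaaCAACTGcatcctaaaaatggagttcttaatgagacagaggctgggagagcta
Slc8a1 (chr17:81738388-81738637, minus strand): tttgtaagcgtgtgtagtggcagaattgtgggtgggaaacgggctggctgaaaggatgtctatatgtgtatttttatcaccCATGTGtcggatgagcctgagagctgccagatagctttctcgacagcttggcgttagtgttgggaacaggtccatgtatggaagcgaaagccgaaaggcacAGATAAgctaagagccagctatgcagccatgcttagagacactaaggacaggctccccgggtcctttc

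The motifs searched were the E-box CANNTG, the GATA site AGATAA, the nuclear receptor half-site AGGTCA, the M-CAT element CATTCC, the TATA box TATAAA, and the MEF2 and CArG sites by name. In the positions that follow, -1 is the base before the start. An E-box was in all 5 windows, at -59 in Pln, -22 in Hrc, -102 and -66 in Ryr2, -200 and -52 in Casq2 and -169 in Slc8a1, and 66.2% of 32851 promoter windows of the same length hold one. A GATA site was found at -183 in Pln, on the opposite strand, and at -68 in Slc8a1 (9.99% of windows hold one). A half-site was found at -117 in Ryr2 (14.02% of windows), a TATA box at -219 in Pln (12.4%) and a MEF2 site at -69 in Casq2 (2.92%). M-CAT and CArG sites, held by 12.6% and 1.47% of windows, were in none of the 5. The Jph2 windows held an E-box, at -29 or -9 by the start used, and a half-site on the opposite strand, at -76 or -56. The falling genes and Slc8a1 shared the E-box and, for Pln, the GATA site, and these matches describe letters only.

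Other genes of calcium handling were counted in 6 lists of 104 genes, of which 100 were found in the files (all but Arln, Erln, Jph3 and Mcub) and 85 were tested. Of these 85, 35 fell, 9 rose and 41 did not pass, with a median log2 fold change of -0.36. That is 41.2% falling and 10.6% rising, against 19.5% and 16.1% of all tested loci. The number falling was 22 to 23 without any 1 control and 21 with libraries scaled to one sum, and the number rising was 5 without any 1 control and 14 without knockout replicate 2.

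**Figure D5:**
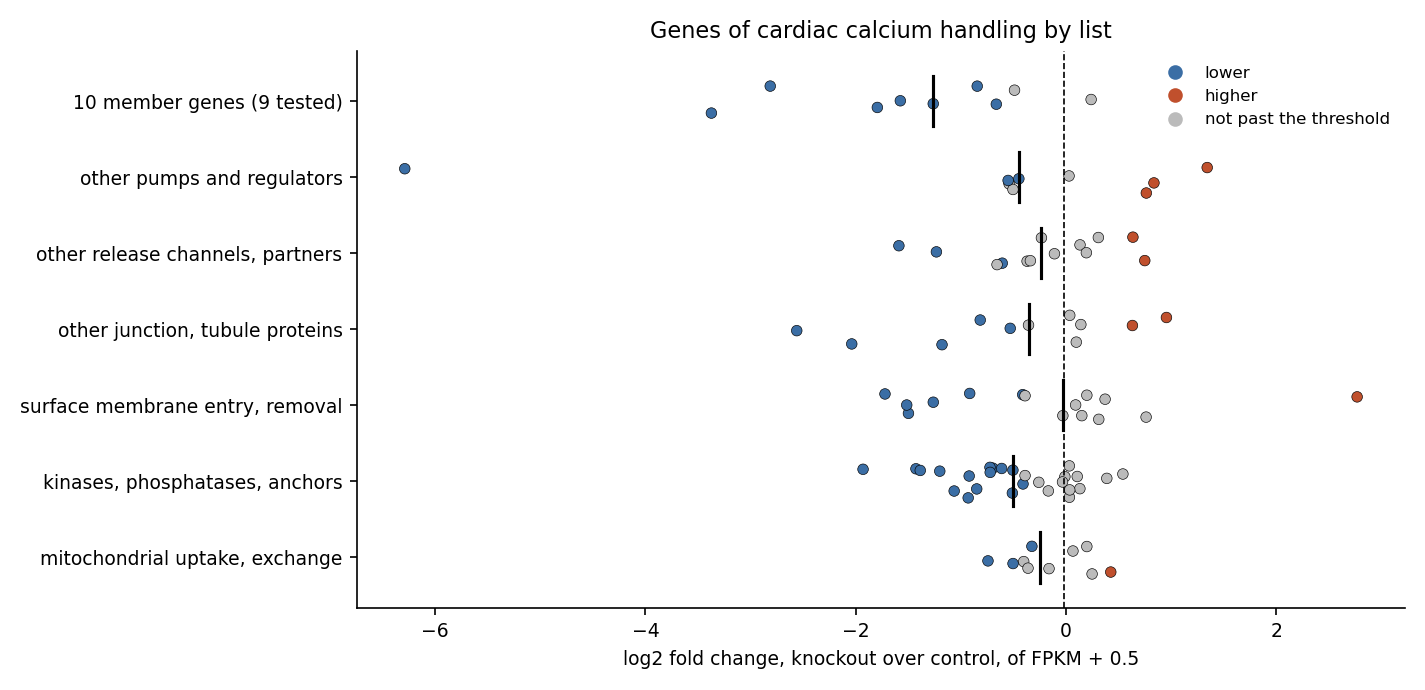
Log2 fold change of FPKM + 0.5, knockout over control (horizontal axis), of each tested gene in the 10 members and 6 other calcium handling lists; blue points passed as lower, red as higher, grey did not pass, the black bar is the list's median and the dashed line the median of all tested loci. The lone blue point at -6.29 is Strit1 and the red point at 2.77 is Cacnb1.

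Among other pumps and pump regulators, 3 of 9 tested fell, 3 rose and 3 did not pass. That is 33.3% each way, against 19.5% falling and 16.1% rising of all tested loci. Strit1 (listed as Gm34302) encodes DWORF, a small protein that relieves the pump of phospholamban and sarcolipin. It was 66.5, 118 and 159 FPKM in the controls and 2.17, 0 and 1.47 FPKM in the knockouts. The groups lay far apart, and the log2 fold change of -6.29 (limma SE 0.62, adjusted p = 0.00060) was the second lowest of all 12181 tested loci. It lay between -7.24 and -5.56 under the 16 alternatives and passed in each. Its log2 fold change and that of Pln were both lower than the -1.58 of Atp2a2, and the difference between these genes and Atp2a2 was not tested in this fit.

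Hax1, a protein that binds phospholamban, rose from 9.43 ± 0.546 to 25.0 ± 4.74 FPKM (log2 1.34, limma adjusted p = 0.00098). Atp2a3, a pump gene of other cell types, rose from 2.45 ± 0.104 to 4.52 ± 0.553 FPKM (0.76, adjusted p = 0.0046). Sri, sorcin, which binds the release channel, rose by 0.84 (adjusted p = 0.023), a call lost without any 1 control or knockout replicate 1. With libraries scaled to one sum, or without control replicate 1 or 2, 1 gene of this list fell instead of 3.

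Among other release channels and their partners, 3 of 13 fell, 2 rose and 8 did not pass. These shares of 23.1% and 15.4% were near the 19.5% and 16.1% of all tested loci. Asph, whose locus also makes junctin, a partner of triadin, fell from 106 ± 9.91 to 35.3 ± 8.54 FPKM (log2 -1.59, SE 0.19, limma adjusted p = 0.0011). Casq1, skeletal calsequestrin, fell from 3.13 ± 0.944 to 1.05 ± 0.372 FPKM (-1.232, adjusted p = 0.0090). The 2 risers were binding partners of the channel, Fkbp1a from 17.3 ± 1.97 to 29.4 ± 1.70 FPKM (0.75, adjusted p = 0.0042) and the calmodulin gene Calm2 from 75.1 ± 6.10 to 118 ± 20.4 (0.64, adjusted p = 0.020). The Calm2 call was lost without any 1 control, which left 1 riser, and without knockout replicate 2 the number falling was 5.

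Among other junction and transverse tubule proteins, 5 of 11 fell, 2 rose and 4 did not pass. The shares were 45.5% and 18.2%, against 19.5% and 16.1% of all tested loci. Cmya5, which holds the junction at the Z line, was 172, 189 and 190 FPKM in the controls and 31.1, 27.1 and 34.4 in the knockouts. Both groups were tight and far apart (log2 -2.56, SE 0.14, limma adjusted p = 7.9e-05). Rtn2, a membrane-shaping reticulon, fell from 60.4 ± 5.97 to 14.5 ± 2.69 FPKM (-2.04, adjusted p = 0.00038). Nexn, a Z-line and junction protein whose locus is shared with a second gene model, fell from 209 ± 22.3 to 94.4 ± 27.7 (-1.18, adjusted p = 0.0075). Ehd4, a membrane-trafficking protein, rose from 71.5 ± 11.4 to 139 ± 21.3 FPKM (0.96, adjusted p = 0.0058). The numbers were 3 falling without control replicate 1 or 2 or with libraries scaled to one sum, and 1 rising without any 1 control.

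Among genes of calcium entry and removal at the surface membrane, 6 of 15 fell, 1 rose and 8 did not pass. In percent, 40% fell and 6.67% rose, against 19.5% and 16.1% of all tested loci. Subunits of voltage-gated calcium channels went both ways, with Cacnb1 the only one that rose. Cacna1c, which had the highest control mean of this list and was named after its value was seen, fell. It went from 114 ± 8.49 to 47.4 ± 7.48 FPKM (log2 -1.26, limma adjusted p = 0.0012). Cacna2d1, an accessory subunit, fell from 67.4 ± 5.88 to 20.4 ± 4.39 FPKM (log2 -1.72, limma adjusted p = 0.00079). Cacnb2, the main cardiac beta subunit, fell from 53.0 ± 7.60 to 18.6 ± 3.90 (-1.50, adjusted p = 0.0015), and Cacna1g, a T-type channel, from 4.10 ± 0.592 to 1.11 ± 0.120 (-1.51, adjusted p = 0.00067). Cacnb1, the beta subunit typical of skeletal muscle, was 2.24, 1.69 and 2.76 FPKM in the controls and 13.4, 14.3 and 29.6 FPKM in the knockouts. Every knockout was above every control (2.77, SE 0.31, adjusted p = 0.00092), and it was the lone riser of this list, joined by 1 more without knockout replicate 3.

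The list of kinases, phosphatases, anchors and receptors acting on the store had 15 of 27 lower, 0 higher and 12 not past the threshold, with a median of -0.50 (limma, with 1 higher at an unadjusted p under 0.05). Past the adjusted threshold 55.6% were lower and 0% higher, against 19.5% and 16.1% of all tested loci. Among calcium/calmodulin kinase genes, Camk2a fell from 11.8 ± 0.857 to 2.81 ± 0.896 FPKM (log2 -1.93, limma adjusted p = 0.00071) and Camk2b from 2.66 ± 0.190 to 0.677 ± 0.114 (-1.43, adjusted p = 0.00091). Camk2b was under 1 FPKM in every knockout and passed the filter only through the controls, so its call is not independent of the filter. The main cardiac form, Camk2d, named after its value was seen, did not pass at 71.0 and 59.6 FPKM (-0.26, adjusted p = 0.20). Pde3a, a phosphodiesterase acting at the pump, fell from 19.1 ± 2.10 to 7.01 ± 1.07 FPKM (-1.39, adjusted p = 0.00080), and Ppp1r3a, a phosphatase subunit, from 46.1 ± 3.27 to 20.3 ± 6.06 (-1.20, adjusted p = 0.0046). With libraries scaled to one sum 10 genes of the list fell and 2 rose, and without any 1 control 10 or 11 fell. Without knockout replicate 2, 14 fell and 2 rose.

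The mitochondrial uptake and exchange list had 3 of 10 tested genes lower, 1 higher and 6 not past the threshold. Of all tested loci, 19.5% were lower and 16.1% higher. Vdac1, the outer membrane channel, went from 335 ± 6.99 to 206 ± 59.2 FPKM (log2 -0.74, limma adjusted p = 0.039), and the uniporter pore gene Mcu from 7.60 ± 0.252 to 5.97 ± 0.239 (-0.32, adjusted p = 0.047). Mcur1, a uniporter regulator, went from 16.5 ± 0.624 to 11.6 ± 2.11 FPKM (-0.50, adjusted p = 0.035). These 3 calls were lost without any 1 control or knockout replicate 1, and the Mcu call passed in 5 of 16 alternatives. With libraries scaled to one sum, 0 genes of the list fell and 2 rose, and without any 1 control 0 rose.

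Loci whose log2(FPKM + 0.5) followed a member most closely over the 6 libraries were found by Pearson's r, as a description of libraries that share 1 contrast. Atp2a2 was followed by Ncor1, a nuclear receptor corepressor (r = 0.998), Pcf11, a transcript end-processing factor (0.997), and Lmtk2 (0.996), over 9785 loci with 1 gene name and a mean of at least 2 FPKM. Pln was followed by Oxa1l, a mitochondrial membrane insertase, Csnk1g2, a casein kinase, and Trmt2b, an RNA methyltransferase (r = 0.999 or above for each). Sln was followed by Myl7 (0.997), the histocompatibility gene H2-M3 (0.994) and Myl4 (0.992). Like Sln, which was at 0 in 3 libraries, each of these was highest in knockout replicate 2 and second highest in knockout replicate 1. H2-M3 spanned only 1.88 to 3.03 FPKM, and r without knockout replicate 2 was not computed. More than 0.99 was reached by 31 loci for Atp2a2, 161 for Pln and 7 for Sln.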

How the data were processed

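FPKM values per locus were deposited by the authors, 1 file per library, per the file headers. The submitters' processing notes list HISAT 0.1.6 and HISAT2 2.0.1, Cufflinks 2.2.1 and Cuffdiff, StringTie 1.1.0, bedtools, Picard 1.23 and SAMtools 1.3, and the builds mm10 and GRCm38, without saying what each was used for. Settings, annotation, strand use and scaling across libraries were not given in the sources used here. Depth is unknown, so no counting interval is given, and 950 loci carry more than 1 gene name.

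Groups and replicate numbers came from the labels. The filter kept 12181 loci that reached 1 FPKM in 3 or more libraries, and log2(FPKM + 0.5) was used with no scaling added. The group difference was fitted with limma 3.58.1 (R 4.3.3), with a mean-variance trend, two-sided, and Benjamini-Hochberg adjustment at 0.05. Folds are on this scale and understate changes of low genes. Ratios within libraries were compared by exact permutation tests, 4 in all, with a Benjamini-Hochberg adjusted p of 0.13 for the 3 at p = 0.10 and 0.40 for Sln. The fit was tried on simulated libraries with independent noise, none of which stood apart as knockout replicate 2 does here.

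The members and lists were chosen with earlier results of these data known. Named genes are the members, up to 4 genes with the largest change past the threshold in each list, the 3 loci most like Atp2a2, Pln and Sln, the highest markers and Prorp. Of the highest markers only the atrial ones are named with their values, and 1 gene the rule takes is not reported here. Positions are from the RefSeq table of GRCm38.p6. Alternatives changed the pseudocount, filter, scaling, variance model, pairing and libraries.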

Additional observations from a re-analysis of the deposited data

How the results depend on the processing

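The number of members called lower was 5 to 8 under the 16 alternatives: 5 with libraries scaled to one sum or without any 1 control, 6 with no filter on low values, with the replicate block or without knockout replicate 1, and 8 with array weights or without knockout replicate 3. Members called higher were 0 except with quantile normalization, which gave 1, Slc8a1 (log2 0.47, limma adjusted p = 0.043). Slc8a1 turned to -0.021 without knockout replicate 3. Log2 fold changes ranged from -1.68 to -1.24 for Atp2a2, -3.11 to -2.34 for Pln, -3.59 to -2.99 for Hrc and -1.47 to -0.94 for Trdn, and Ryr2 was no higher than -1.57, with limma adjusted p of at most 0.037. Casq2 passed in 9 of 16 alternatives, its lost calls including that with the replicate block (adjusted p = 0.063), Jph2 in 12 and Jph1 in 2 (without knockout replicate 3, and with array weights, where its adjusted p was 0.016). Over the 6 other lists, genes called lower (35) were 21 with libraries scaled to one sum, 23 with the replicate block and 22 to 36 with 1 library left out, and genes called higher (9) were 5 to 14 with 1 library left out. The mitochondrial list had 0 lower with the replicate block. Over all loci, calls (2377 lower, 1966 higher) were 1400 and 3229 with libraries scaled to one sum, 1807 and 1536 with the replicate block, and 1409 lower and 1212 higher without control replicate 2; the cause was not tested. The replicate block used the shared numbers, which same-numbered libraries did not bear out (correlations of their deviations of -0.083, -0.064 and -0.0063). A block leaves the differences in ratios as they were (1.82 for Slc8a1 to Atp2a2), and its exact p of 0.25 is the smallest that 3 pairs can give. Depth, given only in relative terms, limits what can be said of Sln and other loci listed at 0.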
